A study of Mus musculus with 3 samples.

Results

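Accessible chromatin was examined at 10 neuropeptide genes, Cck, Nts, Vip, Gal, Tac1, Sst, Npy, Crh, Grp and Adcyap1, in dopaminergic neurons (DNs) of the mouse midbrain. A peak was counted for a gene when it overlapped the GENCODE M21 gene body or lay within 50 kb of either end, which took 23 of the 55326 DN peaks and concerned 10 of 21755 protein-coding genes. The peaks came from snATAC-seq, in which a transposase tags open DNA inside single nuclei, of the ventral tegmental area (VTA) of wild-type C57Bl/6Nl males, with 7-week-old tissue in 1 library and 9-week-old tissue in the other. Both DN libraries had been merged into 1 list of positions, each 500 bp wide, with no height, score or count, so that no spread between replicates, depth or p-value could be derived and every comparison below is a description. The 1 library of mouse embryonic stem cells in the series was not analysed here. A gene without a peak is a gene where none was called, which does not show closed chromatin.

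Neuropeptides are cut from larger precursor proteins inside dense core granules and released beside classical transmitters, after which they act on G protein-coupled receptors over longer distances and times than dopamine. In midbrain DNs, cholecystokinin (Cck) and neurotensin (Nts) are the best known peptides stored together with dopamine, and Vip, Grp and Adcyap1 mark smaller DN subgroups. Sst and Npy are better known from GABAergic interneurons, Tac1 encodes substance P and neurokinin A, and Crh and Gal encode corticotropin-releasing hormone and galanin.

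The DN label was checked on marker genes. All 10 DN markers had a peak within 1 kb of an annotated transcription start site (TSS), with a median of 11 peaks in the gene or within 50 kb. Over all protein-coding genes, 58.6% had such a TSS peak and the median was 4. Th is not independent of the label, since the authors chose the cluster by its gene score, and they checked that choice on Slc6a3, Lmx1b, Foxa1 and Foxa2. No TSS peak was listed for the oligodendrocyte genes Olig2, Sox10 and Mog, the microglial genes Csf1r and Cx3cr1, or the astrocyte genes Aqp4 and Gja1, although Cx3cr1 had 9 peaks in its gene body. Counts in the gene or within 50 kb did not separate the lists in this way, with 16 peaks at Mog, 11 at Cx3cr1, 5 at Csf1r, 3 each at Sox10 and Gja1, 2 at Aqp4 and 0 at Olig2. Of the genes for other transmitters, Slc32a1 and Slc17a6, the vesicular transporters of GABA and glutamate, had a TSS peak, whereas Gad1, Gad2 and Slc17a7 had none. The part of GABA- or glutamate-releasing nuclei in the results below was not tested.

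The sequences shown first are 160 bp of each of the peaks that the description turns on, read from the GRCm38 (mm10) reference on the strand of the gene. Capitals mark matches, on either strand, to short motifs: TGACGTCA, the cAMP response element (CRE) bound by CREB, TGACG, the core contained in it, the forkhead sequences TGTTTAC and TATTTAC, the E-box CAGATG, the homeodomain core TAATTA, and CTCF. A match describes the letters and is not a binding site. The stretches are central in Cck peak 5, Sst peaks 2 and 3 and the Npy and Adcyap1 peaks, and in Cck peaks 1, 4 and 6, Sst peak 1 and the Vip peak they were moved off the centre so as to hold a match, so the stretches do not compare how often motifs occur. From the Cck locus on chromosome 9 (minus strand) they are the peak in the gene (peak 1, chr9:121494284-121494443), which runs from a coding exon into the next intron, and 3 peaks of a group downstream of it (peak 4, chr9:121478241-121478400, peak 5, chr9:121477392-121477551, and peak 6, chr9:121474191-121474350).
Cck peak 1: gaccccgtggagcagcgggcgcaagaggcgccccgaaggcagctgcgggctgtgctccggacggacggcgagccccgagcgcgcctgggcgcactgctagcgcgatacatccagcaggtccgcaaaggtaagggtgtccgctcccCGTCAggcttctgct
Cck peak 4: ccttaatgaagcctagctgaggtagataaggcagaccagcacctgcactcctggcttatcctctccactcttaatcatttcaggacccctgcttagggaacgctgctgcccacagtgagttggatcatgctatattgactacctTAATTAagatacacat
Cck peak 5: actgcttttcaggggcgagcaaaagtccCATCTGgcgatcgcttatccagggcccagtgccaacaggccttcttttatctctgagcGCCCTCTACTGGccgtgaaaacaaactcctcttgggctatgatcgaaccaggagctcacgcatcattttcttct
Cck peak 6: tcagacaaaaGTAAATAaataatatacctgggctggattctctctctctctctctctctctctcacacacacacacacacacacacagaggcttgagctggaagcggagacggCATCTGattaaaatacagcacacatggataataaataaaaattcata

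Sst peaks 1 and 3 are shown because the same forkhead sequence recurs in them. Peak 2, beside peak 1, has no forkhead match, and peak 4, which has one, is not printed. Peaks 1 and 2 lie upstream of the gene on chromosome 16 (minus strand), at chr16:23898939-23899098 and chr16:23898349-23898508, and peak 3 lies downstream, at chr16:23878331-23878490. In peaks 1 and 3 the capitals mark TGTTTAC read from the opposite strand (GTAAACA as printed), and a CTCF match is in capitals in peak 2.
Sst peak 1: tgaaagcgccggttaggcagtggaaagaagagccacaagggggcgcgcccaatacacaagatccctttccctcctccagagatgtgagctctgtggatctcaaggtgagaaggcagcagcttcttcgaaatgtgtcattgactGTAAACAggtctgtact
Sst peak 2: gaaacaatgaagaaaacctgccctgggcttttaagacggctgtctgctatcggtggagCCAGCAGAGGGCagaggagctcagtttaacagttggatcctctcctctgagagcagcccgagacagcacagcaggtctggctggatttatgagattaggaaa
Sst peak 3: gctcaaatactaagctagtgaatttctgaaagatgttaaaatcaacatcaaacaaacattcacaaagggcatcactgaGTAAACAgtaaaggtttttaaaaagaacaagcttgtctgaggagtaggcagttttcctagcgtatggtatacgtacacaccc

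The next sequences are from the peaks of 3 genes that had 1 peak each, shown to set them beside those above. They are the peak downstream of Vip (plus strand, chr10:5650845-5651004), the peak upstream of Npy (plus strand, chr6:49797375-49797534) and the peak inside Adcyap1 (plus strand, chr17:93200215-93200374). The Vip stretch, which was moved to hold it, has 1 E-box match, and the other two peaks hold no match to any of the 12 motifs searched in their whole 500 bp.
Vip peak 1: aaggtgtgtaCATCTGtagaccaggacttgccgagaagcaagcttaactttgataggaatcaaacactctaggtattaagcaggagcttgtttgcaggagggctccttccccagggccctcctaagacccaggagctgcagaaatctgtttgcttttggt
Npy peak 1: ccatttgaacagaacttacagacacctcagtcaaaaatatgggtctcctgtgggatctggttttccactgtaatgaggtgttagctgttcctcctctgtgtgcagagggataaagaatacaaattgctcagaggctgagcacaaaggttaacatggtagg
Adcyap1 peak 1: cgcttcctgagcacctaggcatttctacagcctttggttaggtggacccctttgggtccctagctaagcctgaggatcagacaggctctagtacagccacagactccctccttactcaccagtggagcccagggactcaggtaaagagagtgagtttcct

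The last set is promoter sequence from RefSeq (GRCm38.p6), shown because no DN peak lay over the Sst, Vip or Nts promoter and because the Cck peak lay inside the gene rather than over this stretch. The Sst stretch (chr16:23890874-23890903, minus strand) holds the CRE, a textbook binding site of CREB, at positions -48 to -41 from the RefSeq start. The Vip stretch (chr10:5639098-5639217, plus strand) holds TGACG at -79 to -75. In the Cck stretch (chr9:121495695-121495814, minus strand) the reverse complement of TGACG begins at -47, and a forkhead match at -35 overlaps an E-box match at -30. The Nts stretch (chr10:102490608-102490637, minus strand) holds TGAGTCA, a match to the AP-1 sequence TGANTCA, at -207 to -201.
Sst promoter: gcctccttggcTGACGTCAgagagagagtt
Vip promoter: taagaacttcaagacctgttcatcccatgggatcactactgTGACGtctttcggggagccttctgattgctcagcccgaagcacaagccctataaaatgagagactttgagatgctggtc
Cck promoter: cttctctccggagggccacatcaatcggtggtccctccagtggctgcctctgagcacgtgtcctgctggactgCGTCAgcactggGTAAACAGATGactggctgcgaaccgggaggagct
Nts promoter: caactctttctgTGAGTCAgaaatcctgag

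Peaks were spread unevenly over the 10 genes. Cck had 8 peaks in its window, Grp 5, Sst 4 and Gal 2, while Vip, Npy, Crh and Adcyap1 had 1 each and Nts and Tac1 had none. Thus 8 of 10 genes had a peak in the window, against 83.2% of all protein-coding genes, and the Cck window alone held 34.8% of the peaks. The median was 1 peak per gene (mean 2.3), against a median of 4 (mean 6.67) over all protein-coding genes.

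**Figure D1:**
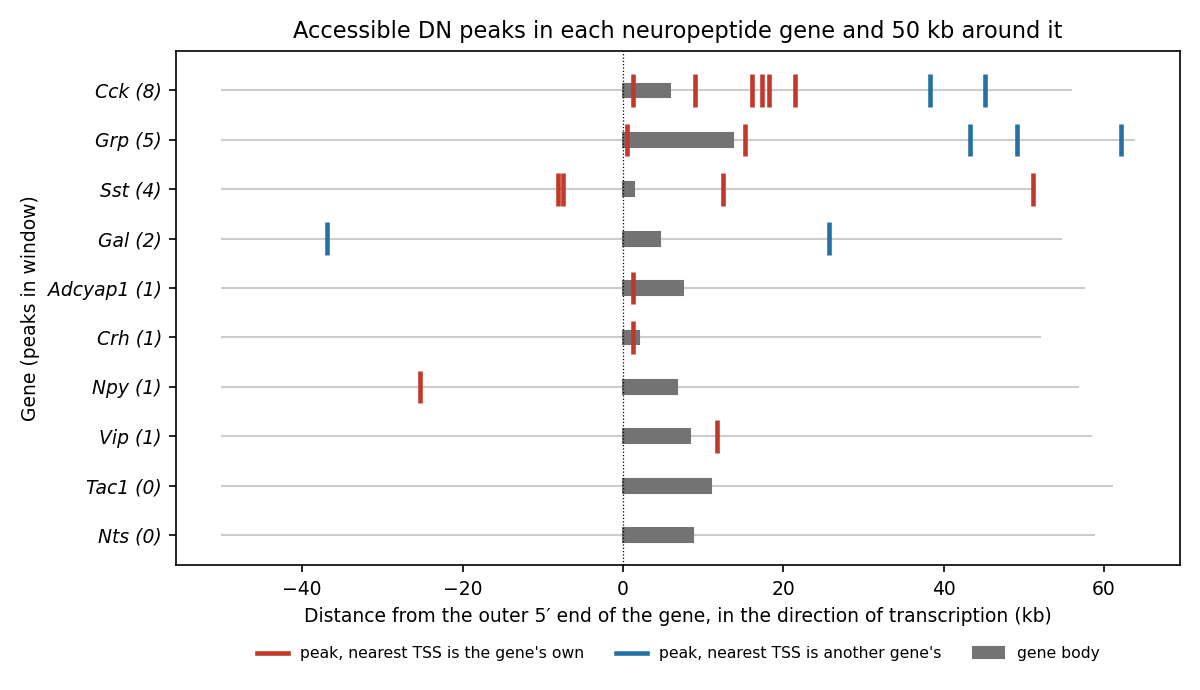
Position of each accessible DN peak (coloured ticks) along the 10 neuropeptide genes, as distance in kb from the outer 5′ end of the gene in the direction of transcription; grey boxes are gene bodies, grey lines the 50 kb on each side, and the number of peaks stands in parentheses. Most ticks of Cck and Grp lie downstream of the gene, and the rows of Nts and Tac1 hold none.

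The order of the counts was also expressed as a percentile among the 21755 protein-coding genes, with tied genes given their middle rank. Cck stood at percentile 70.65, Grp at 54.11 and Sst at 46.2, and these 3 were at or above the median count of 4. Gal stood at 29.1, the 4 genes with 1 peak at 20.87, and Nts and Tac1 at 8.4, so that the median percentile of the 10 genes was 20.87. Per length, the 1070.1 kb of windows held 21.5 peaks per Mb, close to the 21.0 peaks per Mb of the whole chromosomes. The latter value includes sequence far from any gene, and the density over windows of other genes was not computed. Of the 23 peaks behind the former value, 15 lay outside the Cck window. The 10 genes are short, with a median length of 7.16 kb against 17.41 kb, and had a median of 1 other protein-coding gene in the window against 3. Among the 8427 protein-coding genes within their range of length, 74.5% had a peak in the window, with a median of 4.

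**Figure D2:**
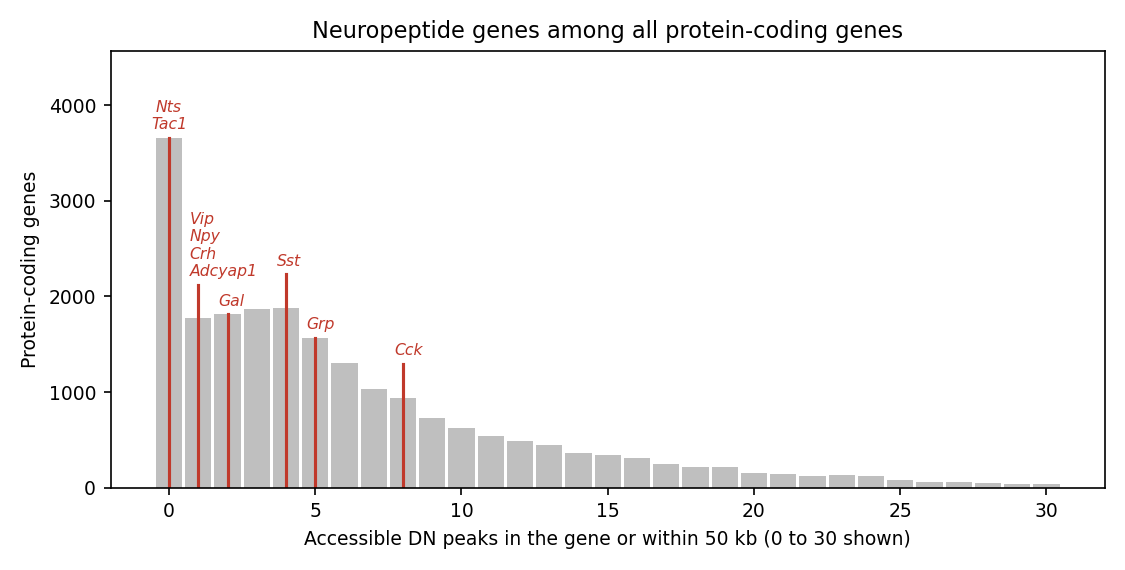
Number of protein-coding genes (vertical axis) by the number of DN peaks in the gene or within 50 kb (horizontal axis), with red lines at the counts of the neuropeptide genes. Nts and Tac1 fall in the bar at 0 and Cck is the member farthest to the right, at 8 peaks.

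Few of the peaks lay at gene starts. A peak overlapped the gene body in 4 of 10 (Cck, Crh, Grp and Adcyap1), against 63.8% of protein-coding genes. A peak lay within 1 kb of an annotated TSS in 3 of 10 (Cck, Grp and Adcyap1), against 58.6%. The outer 5′ end itself was overlapped by a peak in 0 of 10 genes, against 43.7% of protein-coding genes. Among genes within the same range of length, 47.7% had a peak in the body and 45.4% near a TSS.

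Distances from the start ordered the genes differently from the counts. The median distance from the outer 5′ end to the nearest peak edge was 9.357 kb, against 0.221 kb over all protein-coding genes. Genes within the same range of length had a median of 4.574 kb, so the gap to these was smaller. The median of 47 other neuropeptide precursor genes, described below, was 4.879 kb. The distance was 0.318 kb for Grp, 0.97 kb for Cck, 1.028 kb for Adcyap1 and 1.071 kb for Crh. Sst followed at 7.221 kb and Vip at 11.493 kb, then Npy at 25.006 kb and Gal at 25.505 kb. Tac1 and Nts stood far from the others, at 138.13 kb and 704.39 kb. Adcyap1 and Crh, with 1 peak each, thus came ahead of Sst with 4, and Gal with 2 came after all 4 genes that had 1.

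**Figure D3:**
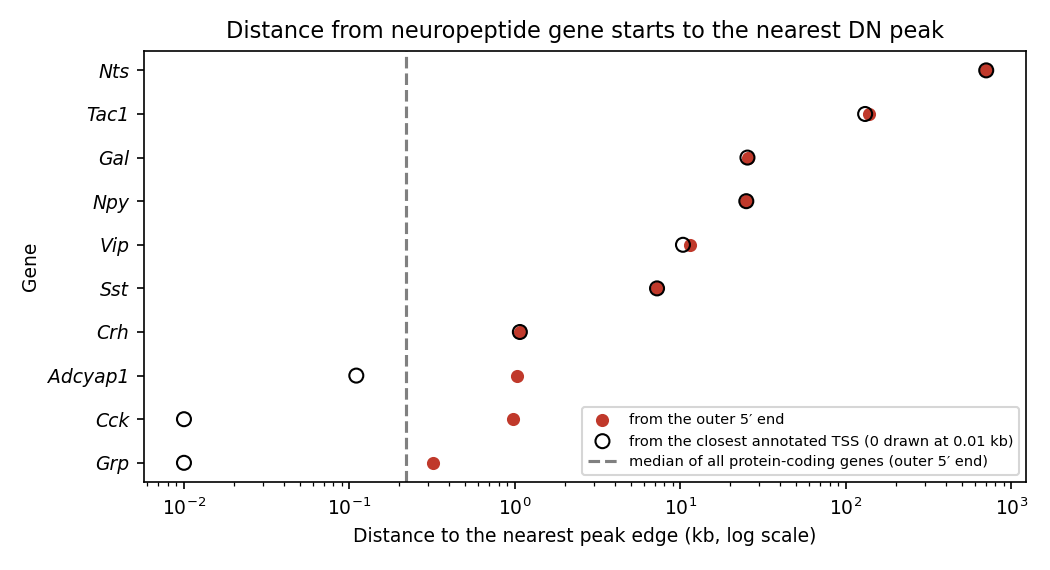
Distance in kb (log axis) from the outer 5′ end (red) and from the closest annotated TSS (open circles) of each neuropeptide gene to the nearest DN peak, with the dashed line at the median of all protein-coding genes, 0.221 kb from the outer 5′ end. All 10 red points lie to the right of the line, and Nts is farthest from it at 704.39 kb. The median of genes within the same range of length, 4.574 kb, is not drawn, and Grp, Cck, Adcyap1 and Crh lie below that value.

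Among the peptides known from DNs, Cck (ENSMUSG00000032532.7, chr9:121489824-121495694, minus strand) had the most peaks. Peak 1 was centred 1.22 kb inside the gene, overlapped exons over 408 bp, of which 214 bp were coding, and covered an internal TSS, the gene having 6 annotated ones. A group of 4 peaks followed downstream, centred 16.054, 17.353, 18.223 and 21.51 kb from the 5′ end, with 1299, 870 and 3287 bp between centres. The last of them, peak 6, lay inside Trak1, a gene for an adaptor of mitochondrial transport along microtubules, and was still nearest to a TSS of Cck. A further peak lay between the gene and that group, at 8.992 kb. The 2 remaining peaks, at 38.322 and 45.167 kb, also lay inside Trak1, and nearer to a TSS of Trak1 than to one of Cck. No peak was listed in the 50 kb upstream of Cck, where the nearest was 60.009 kb away. Within 100 kb of the gene the count was 18, and within 250 kb it was 44, the highest of the 10 genes at each of these distances.

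Nts (ENSMUSG00000019890.4, chr10:102481756-102490486, minus strand), the neurotensin precursor, had the opposite pattern. No peak lay within 250 kb of it. It sat in a stretch of 1513.0 kb without a peak that ranked 104 among 55306 gaps between neighbouring peaks, whose median was 10.74 kb. The same stretch held Rassf9 and Alx1 and ended 799.83 kb away at a peak 32 bp from a TSS of Mgat4c, and 704.39 kb away at a peak whose nearest TSS was that of Lrriq1. The distance from the 5′ end of Nts to a peak exceeded that of most genes, at percentile 97.58. The AP-1 match printed above therefore lay in sequence where no DN peak was called.

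Vip (ENSMUSG00000019772.5, chr10:5639218-5647617, plus strand), which encodes vasoactive intestinal peptide, had 1 peak, centred 11.742 kb from the 5′ end and thus downstream of the gene. No gene body or TSS peak was listed, and the TGACG match of its promoter lay outside any peak. Within 100 kb the count was 3.

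Adcyap1 (ENSMUSG00000024256.7, chr17:93199017-93206537, plus strand), the gene for PACAP, a peptide of the same family as VIP, also had 1 peak, but inside the gene. It was centred 1.277 kb from the outer 5′ end and 359 bp from the closest of 5 annotated TSSs, with 76 bp of coding sequence and the remainder in introns. The next peak upstream was 57.455 kb away, and the next downstream 739.9 kb away. Vip and Adcyap1 therefore had equal counts in the window and differed in where the peak lay.

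The gene body and TSS peak of Grp (ENSMUSG00000024517.17, chr18:65872820-65886596, plus strand), the gene for gastrin-releasing peptide, was centred 0.567 kb from the outer 5′ end and was wholly exonic, with 469 bp of untranslated and 31 bp of coding sequence. It covered 1 of 3 annotated TSSs. The other 4 peaks lay downstream, at 15.294, 43.264, 49.143 and 62.162 kb from the 5′ end. Of these, the 3 farthest were nearest to a TSS of Rax, a homeobox gene of eye and hypothalamus development, and the last lay inside Rax. Counting only peaks whose nearest TSS was its own left Grp with 2.

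Of the peptides better known from interneurons, Sst (ENSMUSG00000004366.4, chr16:23889573-23890958, minus strand), the somatostatin gene, had 4 peaks and none in the gene. A pair of peaks lay upstream, centred 8.084 and 7.47 kb from the 5′ end and 614 bp apart, and the others lay 12.548 and 51.221 kb downstream of it. All 4 were nearest to the TSS of Sst. The nearest peak edge was 7.221 kb from the 5′ end, so that the CRE of the promoter lay in no peak. Npy (ENSMUSG00000029819.6, chr6:49822710-49829507, plus strand), the neuropeptide Y gene, had 1 peak, 25.256 kb upstream, and none in the gene or downstream of it for 149.34 kb. This peak was lost when 25 kb instead of 50 kb was taken on each side.

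Of the remaining genes, Crh (ENSMUSG00000049796.4, chr3:19693401-19695396, minus strand), the gene for the peptide that starts the pituitary stress response, had 1 peak that lay wholly within an exon, over 410 bp of coding and 90 bp of untranslated sequence. Its centre was 1.321 kb from the only annotated TSS, and its near edge 1.071 kb, just outside the 1 kb taken for a TSS peak. The count at Crh rose to 6 within 100 kb. Gal (ENSMUSG00000024907.7, chr19:3409915-3414544, minus strand) had 2 peaks, 36.856 kb upstream and 25.755 kb downstream of its 5′ end, both nearest to another gene. The downstream one was centred 68 bp from a TSS of Tesmin, a gene of testis expression, and the upstream one was nearest to Ppp6r3, a regulatory subunit of protein phosphatase 6.

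Tac1 (ENSMUSG00000061762.12, chr6:7554879-7565834, plus strand) had no peak within 100 kb and 3 within 250 kb. The peak-free stretch around it measured 736.84 kb, ranked 353 of 55306, and held no other protein-coding gene. It ended at TSS peaks of Sdhaf3, an assembly factor of succinate dehydrogenase, 598.71 kb upstream of the gene, and of Asns, asparagine synthetase, 127.18 kb downstream. Nts and Tac1 were the 2 members without a peak, a state shared by 16.8% of protein-coding genes.

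Across the 10 genes, 4 of the 23 peaks lay in a gene body, 4 upstream and 15 downstream. The nearest protein-coding TSS was that of the neuropeptide gene for 16 peaks and that of another gene for 7. A TSS lay within 1 kb of 4 of the 23 peaks (17.4%), against 35.3% of all 55326 peaks. The median distance of a peak centre to the nearest TSS was 10.61 kb, against 4.261 kb. Median GC content was 48.4% (range 39.4 to 65.0%), against 52.0% over all peaks. Among peaks over 1 kb from any TSS the medians were 48.0% and 49.0%. The peaks inside Adcyap1, Crh, Grp and Cck had GC contents of 50.8, 59.0, 59.6 and 63.4%. The highest values were outside the genes, at the Gal peak near Tesmin (64.0%) and the Grp peak inside Rax (65.0%), and the lowest were at Sst peaks 3 and 4 (41.0 and 39.4%).

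Motif matches in the whole 500 bp were counted for the 23 peaks and for all peaks, with 95% exact binomial confidence intervals that cover counting error only and take peaks as independent. The E-box CAGATG occurred in 8 peaks (34.8%, interval 16.4 to 57.3%), against 32.2% of all peaks. The forkhead sequence TGTTTAC occurred in 3 peaks (13.0%, 2.78 to 33.6%), against 7.22%, and all 3 were at Sst, in its peaks 1, 3 and 4. TATTTAC occurred in 1 peak, Cck peak 6, against 6.2% of all peaks, and in 0 against 2.76% in the central 200 bp. CTCF matches were found in 3 peaks (13.0%) against 5.25%, namely Cck peak 5, Sst peak 2 and the Crh peak. Each of these intervals contained the share of all peaks.

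The homeodomain sequence GGATTA, the kind of site bound by the DN factor Pitx3, occurred in 5 peaks (21.7%, 7.46 to 43.7%), against 13.6%. In the central 200 bp GGATTA was found in 1 peak (4.35%), against 5.47%, so the direction depended on the stretch searched. TAATTA occurred in 1 peak, Cck peak 4, against 7.27%. TGACG occurred in 3 peaks (13.0%, 2.78 to 33.6%), against 26.1%. No match was found for TGACGTCA, for TGANTCA, for AAAGGTCA (a site for orphan nuclear receptors such as Nr4a2), or for the REST sequences TTCAGCACC and GGACAGCGC, which all peaks held at 1.51, 12.3, 4.0, 0.804 and 0.676%. With 23 peaks, a count of 0 has an upper bound of 14.8%. Any of the 12 motifs occurred in 15 peaks (65.2%, 42.7 to 83.6%), against 72.7%.

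The RefSeq promoter table, which takes 250 bases before and 50 after a start, held 9 promoters of 8 of the genes, Crh and Grp not among them. TGACG was present in 8 of these 9 promoters (those of Cck, Gal, Nts, Sst, Tac1 and Vip and both of Adcyap1, which overlap and share 1 match), against 20.9% of all 32619 promoters. The whole CRE was present at Sst alone, against 1.8%, and the AP-1 sequence at Nts alone, against 7.85%. In the 23 peaks, TGACG was found in 3 and the whole CRE in 0, against 26.1 and 1.51% of all peaks. These peaks are 500 bp wide and 19 of them lay over 1 kb from a TSS, so they are not like the promoters.

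Other lists of the peptide pathway were set beside the 10 genes. Of 47 other neuropeptide precursor genes, 44 (93.6%) had a peak in the window, 15 (31.9%) in the gene body and 13 (27.7%) near a TSS, with a median of 5 peaks in the window. Most peaks were at Agrp (20), Npw (18) and Gast (16), and none at Gcg, Npb and Pmch. Body and TSS shares were below those of all protein-coding genes in both lists of precursors, which are short genes (median length 7.16 kb in the 10 and 4.259 kb in the 47). Against genes in the length range of the 10, the gap was smaller, with body shares of 40.0 and 47.7% and TSS shares of 30.0 and 45.4% for the 10 and for that range. The window share of the 10 genes, 80.0%, was close to that of all protein-coding genes (83.2%) and of genes in the same range of length (74.5%).

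Genes for the machinery that makes, stores and reads the peptides were counted in the same way. All 13 genes of peptide processing and granules had a peak in the gene body and near a TSS, with a median of 8 peaks in the window. Among them were Pam, which amidates peptides, with 12 peaks, Scg3, a granule protein, with 15, and Cadps2, a factor of granule release, with 14. These genes are long, with a median of 45.04 kb against 7.16 kb for the 10 neuropeptide genes, and longer genes have larger windows. Genes of like length were not counted for this list, so the part of length in its counts was not tested. Of 28 receptor genes for the peptides, 27 (96.4%) had a peak in the window, 18 (64.3%) in the gene body and 17 (60.7%) near a TSS, with a median of 4. Over all protein-coding genes these shares were 83.2, 63.8 and 58.6%, also with a median of 4. The body and TSS shares of the receptor genes were thus close to those of all genes. The most were at Vipr1 (18), a receptor of VIP and PACAP, Ntsr1 (14), the high-affinity neurotensin receptor, and Sstr3 (13), and none at Npy2r. The neurotensin receptor gene thus had TSS and window peaks in a list that held none within 250 kb of Nts.

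**Figure D4:**
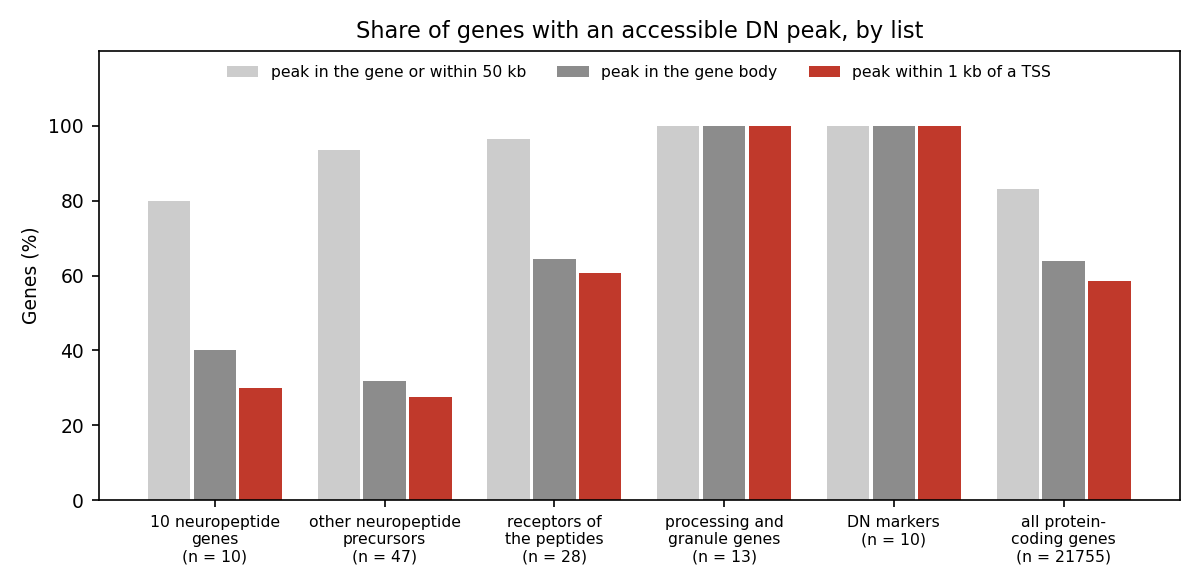
Percentage of genes in each list (vertical axis) with a DN peak in the gene or within 50 kb (light grey), in the gene body (dark grey) and within 1 kb of a TSS (red), with the number of genes under each list. The red bars of the 10 neuropeptide genes (30.0%) and of the 47 other precursors (27.7%) are lower than those of all protein-coding genes (58.6%), and those of processing genes reach 100.0%.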

How the data were processed

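The authors made 2 snATAC-seq libraries from VTA nuclei, mapped reads to mm10, removed doublets by a DNA content gate in the sort and with ArchR, clustered nuclei, picked the DN cluster through the gene score of Th and called peaks on both libraries with ArchR. The submitters' processing notes name Bowtie, Cell Ranger and ArchR. The deposited list holds the chromosome, start and end of 55326 peaks on 19 autosomes and X. The study also describes a filter on the share of nuclei with a peak, and whether the deposited peaks had passed it is not given in the sources used here.

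Starts were read as counted from 0 and are printed from 1, and would be off by 1 bp if counted from 1. Peaks were assigned by an overlap of at least 1 bp. A TSS peak lay within 1 kb of the start of any protein-coding transcript. Distances of peaks in a window, and of any peak to a TSS, were taken from peak centres. Distances to the nearest peak or to the peaks that bound a stretch were taken from peak edges. The genes and lists were chosen with earlier results of these data known. All 10 genes are named, and from other lists the 3 genes with most peaks and up to 3 with none. Cell type markers were named in addition. Counting was tested on simulated data. Scripts ran under Python 3.11.15 with pandas 2.3.3 and numpy 2.4.6, intervals came from scipy 1.17.1 and plots from matplotlib 3.10.9.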

Additional observations from a re-analysis of the deposited data

How the results depend on the processing

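The list gives no counts, so the depth behind a called or missing peak is unknown from it. The paper states how many nuclei formed the DN cluster, and that reproducible peaks were called on pseudobulk replicates. In how many of these nuclei a site must be open to be called was not tested. Only this pooled list was used here, with no score and no value per library, so a stricter threshold and leaving out a library were not run. No paired analysis was possible because the result comes from no test. The total of 23 peaks was 15 with 25 kb and 49 with 100 kb on each side, and the median per gene was 3 with 100 kb. The number of genes with a peak in the window was 7 or 8 under the 7 alternatives run for it, and that with a TSS peak was 2 to 4 under the 5 run for it. The median percentile was 24.04 to 29.89 under its 4 alternatives, the highest among genes of similar length. Of single genes, Gal had 0 peaks and Grp 2 when only peaks nearest to their own TSS were counted, and Npy had 0 with 25 kb.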

Other observations

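Repeats were as common in peaks at the neuropeptide genes as in the list: 18 of 23 peaks (78.3%) held some repeat sequence, against 80.4% of all peaks, and the Grp peak with most of it was 53.6% repeat. Within 250 kb of each gene, the counts were 44 at Cck, 15 at Grp, 12 at Vip, 11 at Gal, 9 at Crh, 8 at Sst, 6 at Npy, 3 at Tac1, 2 at Adcyap1 and 0 at Nts. Vip and Adcyap1, which had 1 peak each within 50 kb, therefore differed at the larger distance. In the central 200 bp, any motif was found in 12 of 23 peaks (52.2%), against 44.9% of all peaks, and GGATTA in 1 peak (4.35%), against 5.47%.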
